A study of Homo sapiens with 6 samples.

Results

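The 10 genes described here encode cytokines that epithelial cells can release: the interleukin 1 (IL1) family members IL1A, IL1B, IL1RN, IL18, IL33 and IL36G, the IL6 family members IL6 and LIF, the IL20-like cytokine IL24, and IL32, which belongs to none of these families. They were taken by name from the 26334 genes of the count table, and were chosen after a rise of inflammatory genes had been seen in WDR5-silenced cells. The values that chose them are the differences between shWDR5 and shLuc, so for these 10 genes those differences are a description without a test. WDR5 is a scaffold of the methyltransferase complexes that methylate histone H3 at lysine 4.

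The samples were 6 RNA-seq libraries of MCF10DCIS.com, an established human breast cancer cell line with basal features that forms comedo-type ductal carcinoma in situ in mice. The 3 control libraries came from cells carrying the hairpin shLuc against luciferase, a gene that human cells lack, and the 3 others from cells carrying shWDR5. Both groups carried the pRSI-U6 vector with TagRFP and a puromycin resistance gene under the UbiC promoter and were selected with puromycin at 3 µg/ml. The methods describe a pool of hairpins against WDR5, only 1 cell line was used here, and untransduced cells were not analysed here. The labels do not say that the libraries came from separate cultures, so p-values measure only the spread between these samples, which may be technical.

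Library depth was 38218108 to 57640167 counts. WDR5 was at 16.5, 15.2 and 16.1 RPKM (a read count scaled for exon length and library size) in shLuc and at 7.34, 7.65 and 6.52 RPKM in shWDR5. Its mean in shWDR5 was 7.17 ± 0.584 RPKM (SD, n = 3), with a log2 fold change of -1.15 (SE 0.07, adjusted p = 8.67e-07). All 9 genes of the list for basal breast epithelium, which includes the general epithelial genes CDH1 and EPCAM, were above 0.5 RPKM. Their summed level was 2164.7 to 2305.5 RPKM in shLuc and 3618.9 to 4131.6 RPKM in shWDR5. That sum was mostly keratin: KRT17, KRT5, KRT14 and KRT6A were called higher, CDH1, which encodes E-cadherin, was called lower (103.0 to 50.3 RPKM, log2 fold change -1.03, SE 0.05, adjusted p = 2.64e-07), and TP63 (0.42), CDH3 (0.26), EGFR (-0.27) and EPCAM (-0.33) were not called. Of 8 myeloid markers 4 passed 0.5 RPKM, with a summed level of 8.83 to 10.3 RPKM in shLuc and 8.76 to 10.1 RPKM in shWDR5, and AIF1 was at 0 in all libraries. Of these 8, CD14 was called lower (0.905 to 0.439 RPKM, log2 fold change -1.05, SE 0.17, adjusted p = 3.42e-04), and ITGAM was at 0.123 RPKM in shLuc and 0.494 RPKM in shWDR5 (log2 fold change 1.97, SE 0.28, adjusted p = 1.77e-04), under the 0.5 RPKM used below. Of 6 lymphoid markers 0 passed 0.5 RPKM, their summed level was 0.18 to 0.281 RPKM in shLuc and 0.16 to 0.218 RPKM in shWDR5, and CD3E, CD3D and CD2 were at 0. Fibroblast markers summed to 3.72 to 4.04 RPKM in shLuc and 2.54 to 3.04 RPKM in shWDR5 with 1 of 7 above 0.5 RPKM and LUM at 0, and endothelial markers to 1.76 to 1.88 and 1.17 to 1.31 RPKM with 1 of 5 above it. The part of the keratin rise and of the other marker differences in the results below was not tested, and in bulk RNA a change in the share of cells of a type and a change in RNA per cell cannot be told apart.

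IL1A and IL1B bind the same receptor, IL1R1 with its partner IL1RAP, and signal through MYD88 and IRAK kinases to NF-kB and AP-1. IL1A is active as its precursor and acts as an alarm signal when epithelial cells are damaged, whereas IL1B and IL18 need cleavage, typically by caspase 1 in an inflammasome. IL1RN encodes the antagonist that occupies IL1R1 without signalling. IL6 and LIF signal through the shared subunit gp130, encoded by IL6ST, to JAK kinases and STAT3. Many cytokine mRNAs are short-lived because AU-rich elements in their 3′ UTRs recruit decay factors.

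Promoter sequence is shown for IL1A, IL6 and IL32, members that were higher in shWDR5 and whose windows held NF-kB, AP-1 or CRE motifs. Motif and rise thus go together in the windows shown by the way they were picked. The windows hold the 250 bases before an annotated start, from RefSeq on GRCh38.p14, printed 5′ to 3′ on the gene's strand. RefSeq windows matched 8 of the 10 members (all but IL18 and LIF) with 13 windows in all. Capitals mark the motifs for NF-kB, AP-1 (TGANTCA) and CRE (TGACGTCA), each searched on both strands, and those for STAT and TATA, of which these windows held none.
IL1A, chr2:112784401-112784650, minus strand: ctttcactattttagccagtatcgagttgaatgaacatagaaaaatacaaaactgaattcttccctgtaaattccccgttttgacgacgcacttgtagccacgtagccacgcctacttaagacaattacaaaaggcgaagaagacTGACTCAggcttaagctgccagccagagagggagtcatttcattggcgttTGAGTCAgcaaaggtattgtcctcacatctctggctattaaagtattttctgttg
IL6, chr7:22726950-22727199, plus strand: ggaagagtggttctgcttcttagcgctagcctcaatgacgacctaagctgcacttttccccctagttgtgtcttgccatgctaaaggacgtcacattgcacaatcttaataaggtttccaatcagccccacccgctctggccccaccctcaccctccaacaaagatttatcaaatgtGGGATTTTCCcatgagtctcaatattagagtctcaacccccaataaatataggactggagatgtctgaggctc
IL32, chr16:3065153-3065402, plus strand: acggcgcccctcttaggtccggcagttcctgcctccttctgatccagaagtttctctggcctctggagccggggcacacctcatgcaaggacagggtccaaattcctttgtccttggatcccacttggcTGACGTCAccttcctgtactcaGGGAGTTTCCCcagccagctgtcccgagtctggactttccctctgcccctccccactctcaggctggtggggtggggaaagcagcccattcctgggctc

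In the IL1A window the AP-1 letters began 105 and 55 bases before the start. The IL6 window held an NF-kB motif 73 bases before the start. The IL32 window held a CRE at 121 bases and a pair of overlapping NF-kB matches at 99 and 98 bases. IL1A and IL32 each had 2 windows. The other of IL1A overlapped the one shown and held 1 TATA motif, which began 239 bases before the start of that window's transcript. It also held 1 AP-1 motif, the same site as that at 105 bases. The other window of IL32 held none of the motifs. Over all 34788 RefSeq windows of this length, 5.21% held the NF-kB motif, 6.59% AP-1, 6.57% STAT, 1.64% CRE and 6.84% TATA. STAT was searched as TTCNNNGAA on both strands, and TATA as TATAAA on the gene's strand. Of the 8 members with a window, 2 held NF-kB (IL6 and IL32), 2 AP-1 (IL1A and IL1RN), 1 STAT (IL1B), 1 CRE (IL32) and 2 TATA. A member was counted if any of its windows matched, whereas the shares are per window, so counts and shares cannot be compared directly. The C/EBP motif (TTNNGNAA, both strands), left in lower case because 33.2% of all windows held it, was found in 4 members. The windows of IL36G, IL24 and IL33 held none of these letters. These are matches of letters and not shown to be bound sites.

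The AU-rich stretches of the 3′ UTRs are shown because the members differed in this feature, which the choice of genes did not use. Each line gives the 30 bases richest in the pentamer ATTTA, in capitals, from the longest annotated 3′ UTR in GENCODE v29 on GRCh38.
IL1A: tATTTAtatatgtATTTAtaaatatATTTA
IL1B: cgcttccctATTTATTTATTTAtttgtttg
IL6: agttaATTTAtgtaagtcatATTTAtattt
LIF: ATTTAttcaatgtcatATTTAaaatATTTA
IL24: cttgtATTTAttacaactctATTTAattaa

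IL6 had 6 pentamers in 429 bases, or 14.0 per kilobase, and 0.23% of tested genes were at least as dense. IL1B had 6 in 610 bases, or 9.84 per kilobase, a density that 0.757% of genes reached. IL1A had 5 in 1152 bases (4.34 per kilobase, reached by 11.9% of genes). LIF had 7, but in a UTR of 3204 bases, so that its 2.18 per kilobase was reached by 40.4% of genes. IL24 had 3 (2.6 per kilobase, reached by 33.1% of genes). IL33 had 4 (2.2 per kilobase, 40.1% of genes) and IL36G had 1 (1.62 per kilobase, 51.1% of genes), and their stretches are not shown. The nonamer TTATTTATT, present in 9.27% of tested genes, occurred 2 times in IL1B and 2 times in LIF. IL1RN, IL18 and IL32 had 0 pentamers, against a median of 2 over 13415 tested genes with an annotated 3′ UTR. Their UTRs were 1145, 345 and 464 bases long, beside a median of 1344 bases, and the median density was 1.68 per kilobase. The 0 in the short UTRs of IL18 and IL32 thus cannot be set directly against the median count.

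Across the 10 members the 3 shWDR5 libraries lay above the 3 shLuc libraries for 6 genes, below them for 2 and overlapped them for 2. Over all 16117 genes that passed the filter on low counts, 29.9% had ranges apart with shWDR5 above and 32.4% with shWDR5 below. By the thresholds used for all genes (adjusted p under 0.05, absolute log2 fold change of at least 0.6 and mean RPKM over 0.5 in either group), 4 members were past them upward (IL1A, IL6, IL32 and IL36G) and 2 downward (IL18 and IL24). The same thresholds called 1272 genes (7.89%) higher and 1689 (10.5%) lower in shWDR5. Nothing is read from these member counts, since the genes were chosen on this contrast. All 10 members passed the filter, and their median log2 fold change was 0.43, beside -0.011 over all genes tested.

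**Figure D1:**
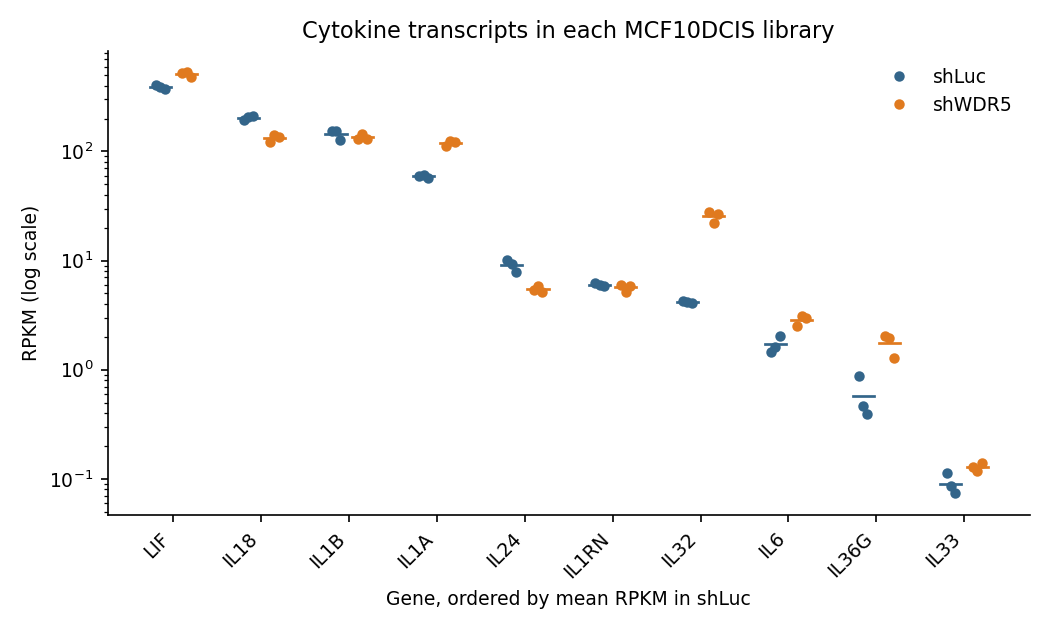
Level of each of the 10 cytokine genes in RPKM on a log axis, with a point for each of the 3 shLuc and 3 shWDR5 libraries and a bar at the group mean. IL32 shows the widest gap between the groups, IL18 and IL24 lie lower in shWDR5, and the points of IL1B and IL1RN overlap.

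Among the ligands of IL1R1, IL1A (chr2:113531492-113542971, minus strand, hg19) was at 59.3, 61.3 and 57.1 RPKM in the shLuc libraries and at 111.4, 125.5 and 122.0 RPKM in the shWDR5 libraries. Every shWDR5 library was above every shLuc library, and the group means of 59.2 ± 2.07 and 119.6 ± 7.34 RPKM (SD, n = 3) were separated by a log2 fold change of 1.01 (SE 0.06). These values rest on 6751 to 20887 reads per library.

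IL1B (chr2:113587337-113594356, minus strand) was at 152.9, 153.4 and 128.3 RPKM in shLuc and at 131.4, 145.3 and 130.6 RPKM in shWDR5. The groups overlapped, with means of 144.9 ± 14.4 and 135.8 ± 8.26 RPKM and a log2 fold change of -0.09 (SE 0.08). The level ratio of IL1A to IL1B was 0.388, 0.399 and 0.445 in the shLuc libraries and 0.848, 0.864 and 0.934 in the shWDR5 libraries. In shLuc IL1B was thus clearly the more abundant of the pair per length, and in shWDR5 the levels were near each other.

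The antagonist IL1RN (chr2:113875470-113891593, plus strand) was at 6.17, 6.02 and 5.84 RPKM in shLuc and at 6.03, 5.18 and 5.87 RPKM in shWDR5. Its groups overlapped too, and the log2 fold change was -0.08 (SE 0.08). The level ratio of IL1A to IL1RN was 9.62, 10.2 and 9.78 in shLuc and 18.5, 24.2 and 20.8 in shWDR5, whereas that of IL1B to IL1RN was 24.8, 25.5 and 22.0 in shLuc and 21.8, 28.1 and 22.3 in shWDR5. Only the ratio with IL1A had groups that did not overlap. Of the 3 ligand genes of IL1R1, IL1A was the one whose libraries lay higher in shWDR5.

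IL36G (chr2:113735596-113743249, plus strand), an agonist of the IL36 receptor made by keratinocytes and other barrier epithelia, was at 0.868, 0.468 and 0.389 RPKM in shLuc and at 2.05, 1.97 and 1.29 RPKM in shWDR5. The groups did not overlap, and the log2 fold change was 1.58 (SE 0.28). The counts were low, at 19 to 52 reads in shLuc and 71 to 136 in shWDR5, and shLuc library 1 stood above the other control libraries. Without that library the log2 fold change was 2.07.

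IL18 (chr11:112013974-112034840, minus strand), which drives interferon-gamma production in lymphocytes, was at 193.3, 205.3 and 211.4 RPKM in shLuc and at 122.2, 140.4 and 135.5 RPKM in shWDR5. All shWDR5 libraries were below all shLuc libraries, with means of 203.4 ± 9.22 and 132.7 ± 9.41 RPKM and a log2 fold change of -0.62 (SE 0.06). IL18 thus went the opposite way to IL1A. It was short of the threshold of 0.6 without shLuc library 3 (-0.59) or shWDR5 library 1 (-0.56), and narrowly so with RLE size factors or DESeq2, both -0.60 after rounding.

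IL33 (chr9:6215786-6257983, plus strand), a nuclear alarmin read by IL1RL1, was close to undetected. Its counts were 15, 9 and 8 reads in shLuc and 16, 18 and 17 reads in shWDR5, which is under 0.5 RPKM in every library. The groups lay apart in RPKM (0.0733 to 0.112 in shLuc and 0.117 to 0.139 in shWDR5), but the log2 fold change of 0.46 had an SE of 0.28, and with so few reads a difference of this size was not resolved.

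LIF (chr22:30636436-30642840, minus strand), a gp130 cytokine that maintains stem cells in other tissues, was the most abundant member in both groups. It was at 410.0, 390.7 and 373.9 RPKM in shLuc and at 524.1, 537.1 and 482.4 RPKM in shWDR5. The groups did not overlap, and the log2 fold change was 0.39 (SE 0.06), under the threshold of 0.6. LIF made up 47.7% of the summed mean RPKM of the 10 members in shLuc and 54.5% in shWDR5.

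IL6 (chr7:22766766-22771621, plus strand) was far less abundant, at 1.45, 1.61 and 2.05 RPKM in shLuc and at 2.53, 3.12 and 2.96 RPKM in shWDR5. The groups did not overlap, with a log2 fold change of 0.76 (SE 0.15) from 74 to 98 reads in shLuc and 139 to 210 in shWDR5. IL6 shares 53 exonic bases with LOC541472 on the other strand, a gene with at most 5 counts in any library, and the kit does not mark strand.

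IL32 (chr16:3115313-3119820, plus strand), an intracellular and secreted inducer of TNF and IL6 that is itself induced by TNF, had the largest log2 fold change of the members. It was at 4.22, 4.14 and 4.11 RPKM in shLuc and at 28, 22.3 and 26.9 RPKM in shWDR5, or 238 to 309 and 1809 to 1921 reads. The shLuc libraries were nearly equal, all shWDR5 libraries lay far above them, and the log2 fold change was 2.63 (SE 0.10), a ratio of means of 6.19.

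IL24 (chr1:207070788-207077484, plus strand), a cytokine of the IL10 and IL20 group that acts on epithelial receptors, was at 10.2, 9.28 and 7.88 RPKM in shLuc and at 5.37, 5.82 and 5.16 RPKM in shWDR5. All shWDR5 libraries were below all shLuc libraries, and the log2 fold change was -0.74 (SE 0.10). IL24 shares 854 exonic bases with FCMR on the other strand, which had at most 244 counts in a library, so that reads in the shared bases cannot be assigned to a strand.

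By level per length, the order in shLuc was LIF, IL18, IL1B, IL1A, IL24, IL1RN, IL32, IL6, IL36G and IL33, and no neighbours in it overlapped in range. In shWDR5 it was LIF, IL1B, IL18, IL1A, IL32, IL1RN, IL24, IL6, IL36G and IL33, where IL1B and IL18, IL18 and IL1A, and IL1RN and IL24 overlapped. Among all genes tested, IL32 moved from rank 8885 by level in shLuc to rank 2636 in shWDR5, and IL1A from 1068 to 495. The members together held 0.218 to 0.234% of all counts in shLuc and 0.265 to 0.29% in shWDR5.

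IL1A, IL1B, IL36G and IL1RN lie in 1 cluster on chromosome 2, with 44.4 kb between IL1A and IL1B, 141.2 kb between IL1B and IL36G and 132.2 kb between IL36G and IL1RN. Along this cluster the differences did not go one way. IL37, whose product dampens inflammation, lies 76.2 kb from IL1B and rose from 1.07 ± 0.124 to 5.86 ± 0.431 RPKM (log2 fold change 2.44, SE 0.13, adjusted p = 3.08e-07), with 1.21, 1.02 and 0.976 RPKM in shLuc and 6.18, 6.03 and 5.37 RPKM in shWDR5. IL36RN, the antagonist of the IL36 receptor, fell from 0.939 to 0.452 RPKM (log2 fold change -1.05, SE 0.14, adjusted p = 1.29e-04). IL36B, a further agonist, was at 0.0599 and 0.138 RPKM and under the level threshold (log2 fold change 1.21, SE 0.40, adjusted p = 0.0257). IL1RL2, which encodes the IL36 receptor, had 0 or 1 reads in every library and did not pass the filter.

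**Figure D2:**
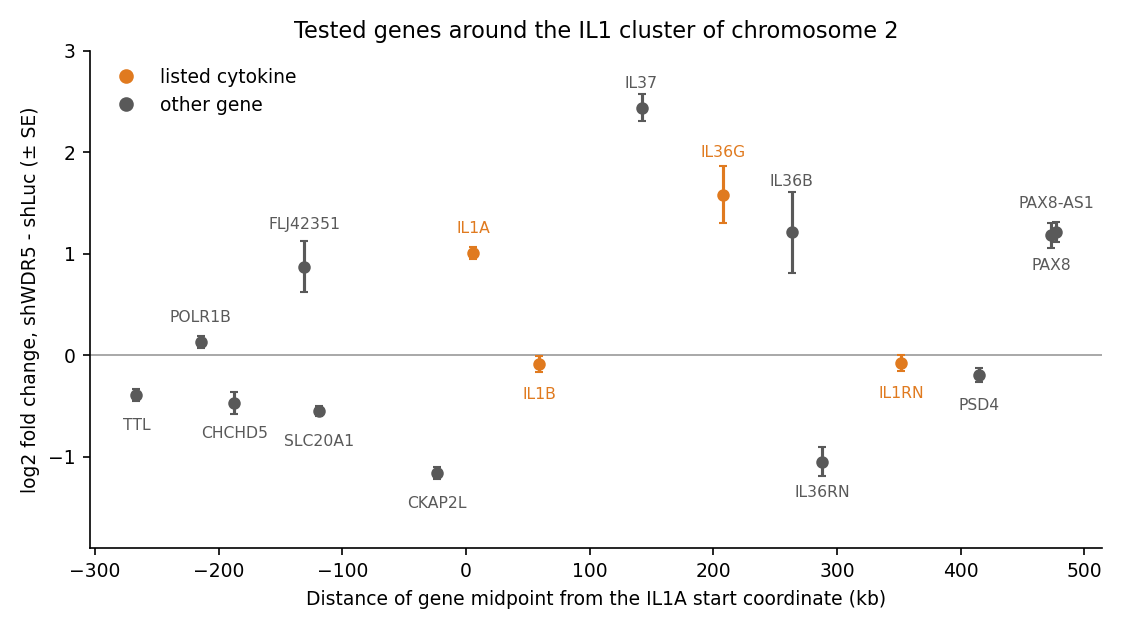
Log2 fold change of shWDR5 against shLuc, with its SE, by distance in kb along the chromosome 2 cluster of IL1 family genes and the genes beside it. IL1A, IL37 and IL36G lie above 0, IL1B and IL1RN near 0, and IL36RN and CKAP2L below it.

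Beside the cluster, CKAP2L, a mitotic spindle gene 9.2 kb from IL1A, fell from 14.3 to 6.40 RPKM (log2 fold change -1.16, adjusted p = 3.88e-07), and the phosphate transporter gene SLC20A1 had a log2 fold change of -0.55 (SE 0.05), short of the threshold. On the other side PAX8, a transcription factor gene, rose by a log2 fold change of 1.18 (SE 0.12, adjusted p = 1.45e-05), but it overlaps PAX8-AS1 on the other strand (1.21), and their reads cannot be told apart without strand. Over all members, 77 genes that are not members lay within 250 kb and were tested: 8 were called higher, 11 lower and 58 neither, with a median log2 fold change of -0.05. Of all genes tested, 7.89% were called higher and 10.5% lower, with a median of -0.011.

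The lists named in the next paragraphs group genes by role and were chosen with earlier results of these data known. Of the 118 genes of all lists that passed the filter, 25 (21.2%) were called higher and 15 (12.7%) lower, beside 7.89% and 10.5% of all genes, with a median log2 fold change of 0.12. The IL1-induced list gave 14 of the 25 higher calls. Without it 11 of 103 genes (10.7%) were higher and 15 (14.6%) lower, with a median of 0.02.

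Of 7 tested receptors and decoys of the IL1 family, 2 rose and 2 fell, with a median log2 fold change of -0.02 beside -0.011 for all genes. IL1R2, the decoy receptor that binds IL1 without signalling, rose from 0.211 to 0.955 RPKM (log2 fold change 2.20, SE 0.24, adjusted p = 2.45e-05). IL18BP, the soluble inhibitor of IL18, rose from 1.48 to 3.2 RPKM (log2 fold change 1.11, SE 0.10, adjusted p = 5.99e-06). The signalling receptor IL1R1 fell from 1.39 to 0.793 RPKM (log2 fold change -0.80, SE 0.11, adjusted p = 1.05e-04), as did SIGIRR, a negative regulator of IL1 and Toll-like receptors, from 12 to 6.41 RPKM (-0.91, SE 0.08, adjusted p = 7.38e-06). Both genes that rose encode proteins that hold a cytokine away from its receptor. The accessory chain IL1RAP, at 26.0, 32.2 and 31.3 RPKM in shLuc and 26.2, 29.3 and 32.7 RPKM in shWDR5, overlapped (-0.02, SE 0.10, adjusted p = 0.866).

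**Figure D3:**
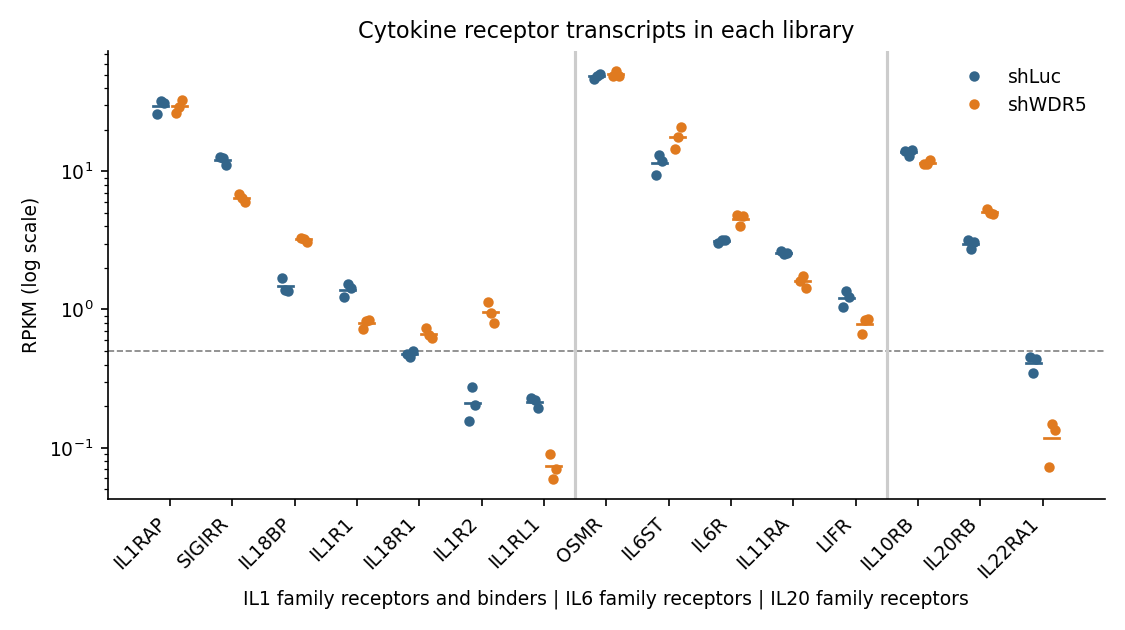
RPKM on a log axis of receptor and decoy genes of the IL1, IL6 and IL20 families, with a point for each library of both groups and a bar at the mean. The dashed line marks 0.5 RPKM, and IL1R2 and IL18BP lie higher in shWDR5, IL1R1 and SIGIRR lower, while IL1RAP and OSMR overlap.

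Downstream of the receptor, 0 of 16 signalling genes were called in either direction by edgeR, and 0 by DESeq2. At an unadjusted p under 0.05 there were 5 higher and 6 lower. IRAK1, a kinase at the receptor, was at 73.2 and 85.7 RPKM (log2 fold change 0.23, SE 0.06, adjusted p = 0.00579), and PELI2, an E3 ligase with 3 to 30 reads, was past the fold threshold (-1.87, SE 0.33) but under the level threshold. In the list of inflammasome genes and proteases that process IL1 cytokines, 3 of 15 fell and 0 rose (3 higher at an unadjusted p under 0.05, 0 by DESeq2). CASP1, which cleaves IL1B and IL18, fell from 8.71 to 4.33 RPKM (-1.01, SE 0.07, adjusted p = 1.53e-06), and its libraries were at 8.34, 8.89 and 8.90 RPKM in shLuc and 4.17, 4.45 and 4.37 RPKM in shWDR5. GSDMD, the pore through which cleaved IL1B leaves, fell from 13.6 to 6.56 RPKM (-1.05, SE 0.08, adjusted p = 2.17e-06), and the adaptor PYCARD from 5.51 to 3.02 RPKM (-0.86, SE 0.12, adjusted p = 1.49e-04). CAPN2, a calpain of the protease class that cleaves the IL1A precursor, was at 207.4 to 218.4 RPKM in shLuc and 189.5 to 194.1 RPKM in shWDR5 and was not called (-0.16, SE 0.05). AIM2, a sensor of cytosolic DNA, had 1 to 4 reads in shLuc and 15 to 19 in shWDR5 (2.63, SE 0.43, adjusted p = 4.50e-04) and was under the level threshold.

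Of the other IL6 family ligands, 3 of 4 tested fell and 0 rose (0 at an unadjusted p under 0.05 and 0 by DESeq2), with a median log2 fold change of -0.88. Among these were IL11 (6.01 to 3.88 RPKM, -0.64, SE 0.08, adjusted p = 1e-04) and CTF1, which encodes cardiotrophin (-1.13, SE 0.16, adjusted p = 2.04e-04). IL11 was short of the fold threshold without shLuc library 1 (-0.57) or without shWDR5 library 2 (-0.60). CLCF1, which was not called, overlapped between the groups (0.19, SE 0.09, adjusted p = 0.0875).

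Of 6 tested IL6 family receptor genes, IL6ST rose and IL11RA and LIFR fell. IL6ST was at 9.31, 13.1 and 11.9 RPKM in shLuc and at 14.5, 17.8 and 20.9 RPKM in shWDR5 (log2 fold change 0.63, SE 0.14, adjusted p = 0.00306), but it was 0.52 without shLuc library 1, 0.50 without shWDR5 library 3 and 0.58 with scaling by total count. LIFR, which LIF needs beside gp130, fell from 1.22 to 0.785 RPKM (-0.63, SE 0.12, adjusted p = 0.00108), and was -0.55 without shLuc library 2 and -0.53 without shWDR5 library 1. IL11RA fell from 2.57 to 1.60 RPKM (-0.68, SE 0.10, adjusted p = 2.75e-04). Of 9 gp130 signalling genes 0 were called in either direction by edgeR and 0 by DESeq2 (3 higher and 2 lower at an unadjusted p under 0.05), and STAT3 was at 43.4 and 44.0 RPKM.

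In the IL20 group 1 of 5 tested genes rose, IL20RB, a receptor chain that IL24 uses, from 2.98 to 5.09 RPKM (0.77, SE 0.08, adjusted p = 3.16e-05). None of the 5 was called lower (3 at an unadjusted p under 0.05, 0 by DESeq2). The receptor chain gene IL22RA1 was at 0.411 RPKM in shLuc and 0.118 RPKM in shWDR5 (-1.78, SE 0.24, adjusted p = 1.35e-04), under the level threshold. IL20RA, a further receptor chain gene, was at 0 in all libraries.

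Among 11 tested genes for other epithelial cytokines and leukocyte growth factors, 3 rose and 2 fell. CSF3, the granulocyte growth factor, was at 0.137, 0.131 and 0.0841 RPKM in shLuc and at 2.20, 2.46 and 2.08 RPKM in shWDR5 (log2 fold change 4.23, SE 0.19, adjusted p = 1.27e-07). CSF2, the granulocyte and macrophage growth factor, rose from 8.57 to 27.6 RPKM (1.68, SE 0.09, adjusted p = 3.22e-07), and IL17C, an epithelial cytokine, from 0.573 to 1.92 RPKM (1.74, SE 0.17, adjusted p = 1.52e-05). IL15 and IL12A fell, by log2 fold changes of -1.09 (SE 0.13) and -0.88 (SE 0.13). MIF is listed at 0 in all libraries although most cells use it, and no level is read from that.

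Of 15 genes for transcription factors of cytokine genes, RELB (10.4 to 18.9 RPKM, 0.86, SE 0.07, adjusted p = 3.14e-06) and NFKBIZ (log2 fold change 0.63, SE 0.06, adjusted p = 1.07e-05), both of the NF-kB system, rose and CEBPA fell (-1.15, SE 0.10, adjusted p = 5.48e-06). NFKBIZ was 0.58 with scaling by total count. Of 12 regulators of AU-rich and stem-loop cytokine mRNA, ZC3H12A, whose product cleaves IL6 mRNA, rose from 21.0 to 37.3 RPKM (0.83, SE 0.06, adjusted p = 1.24e-06). ARID5A, which protects IL6 mRNA, was at -0.61 (SE 0.08, adjusted p = 7.41e-05) but short of the fold threshold with RLE size factors or DESeq2 (both -0.59), without shWDR5 library 2 (-0.58) and without shWDR5 library 3 (-0.57).

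In the list of epithelial genes that IL1 is known to induce, 14 of 15 tested rose and 0 fell (0 at an unadjusted p under 0.05 and 0 by DESeq2), with a median log2 fold change of 1.32. The list was chosen with the inflammatory rise known and is not independent evidence of its direction. Whether IL1 raised these genes in these cells was not tested. S100A8, a calcium-binding alarm protein, was at 1.47, 0.69 and 1.37 RPKM in shLuc and at 20.6, 17.7 and 17.4 RPKM in shWDR5 (log2 fold change 3.94, SE 0.18, adjusted p = 1.41e-07). CXCL3, a neutrophil chemokine (2.58, SE 0.11, adjusted p = 1.22e-07), and the acute-phase genes SAA1 (2.25, SE 0.09, adjusted p = 1.02e-07) and SAA2 (2.07, SE 0.12, adjusted p = 6.28e-07) also rose, but CXCL1, CXCL2 and CXCL3, and likewise SAA1 and SAA2, are near copies between which the assignment of reads is uncertain.

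**Figure D4:**
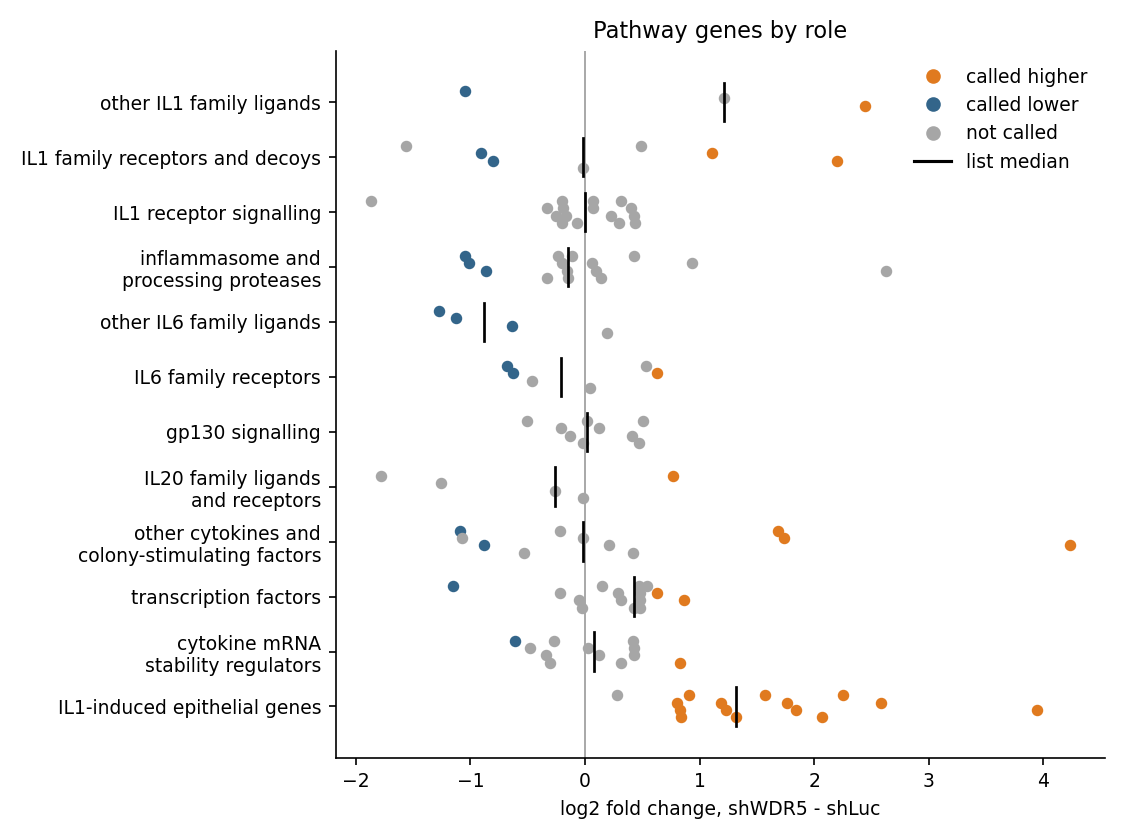
Log2 fold change of shWDR5 against shLuc for every tested gene of each list, with a mark at the median of the list. The IL1-induced list lies mostly above 0 and the other IL6 family ligands mostly below it, while the medians of both signalling lists are near 0.

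As a description of pattern, each member was set beside the genes with the smallest root mean square difference of centred log2 CPM over the 6 libraries, among 13491 genes searched. IL32 was nearest to FN1, which encodes fibronectin, at a difference of 0.059, and FN1 had a log2 fold change of 2.62. For a member with a large difference between the groups, this measure mostly follows that difference. A near gene such as FN1 thus tends to share the fold change of the member by construction. IL1A was nearest to GRB14 at 0.045, IL18 to ZDHHC13 at 0.017, LIF to NCBP2-AS2 at 0.016, and IL24 to GLS2, ENO2 and ANXA6 at 0.048. IL36G had no gene this close, with CAMK1G at 0.129. The log2 CPM carried a pseudocount of 0.5, which draws low genes together, so that genes near in this measure can differ in fitted fold change, as SLC51A did (0.049 from IL1A, log2 fold change 1.52).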

How the data were processed

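The authors aligned the reads to hg19 with TopHat2 2.1.0 and deposited featureCounts read counts per gene, with edgeR 3.2.2 also named in the submitters' notes. The strand setting is not given in the sources used here. The authors' own comparison (fold changes and p-values) was not used. From the deposited counts, edgeR 4.0.16 quasi-likelihood tests (filterByExpr, TMM, Benjamini-Hochberg over 16117 genes, R 4.3.3) compared 3 shLuc with 3 shWDR5 libraries. RPKM used exon length and TMM-scaled library sizes, and the SE is the log2 fold change over the square root of F. DESeq2 1.42.0 was an alternative, beside other scaling, filters, thresholds and leaving out each library. The fitting was tested on simulated data. Depth was 38218108 to 57640167 counts, and no pair of libraries was a duplicate.

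The members and lists were chosen with earlier results of these data known. Names were drawn from WDR5, all members, and up to 4 called genes per list and direction with the largest changes. Also drawn on were up to 2 uncalled genes per list with the highest levels. Tested genes within 250 kb of a member and the 3 genes nearest to each member in pattern were further sources. Not every gene of these sets is named. PELI2, AIM2, MIF, IL1RL2, IL20RA and IL22RA1 fall outside these sets. So do the markers CD14, ITGAM, CDH1, CDH3, EGFR, EPCAM, TP63 and the 4 keratins, and AIF1, CD2, CD3D, CD3E and LUM. Those with values were named after their values were seen. A called gene of the lists is not reported here by name.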

Additional observations from a re-analysis of the deposited data

How the results depend on the processing

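The direction of each member's log2 fold change was the same under all alternatives run. Leaving out 1 library, IL36G was 1.37 to 2.07, IL33 0.33 to 0.69, IL1A 0.98 to 1.06, IL32 2.56 to 2.72, IL6 0.67 to 0.91, LIF 0.36 to 0.44, IL18 -0.66 to -0.56, IL24 -0.84 to -0.64, IL1B -0.18 to -0.04 and IL1RN -0.12 to -0.02. With adjusted p alone, 4291 genes were higher and 4821 lower, and of the lists together 54 and 37. Higher calls were then 2 in IL1 ligands, 5 in IL1 receptor signalling, 3 in the inflammasome list, 2 in IL6 receptors, 3 in gp130 signalling, 5 in other cytokines, 10 in transcription factors and 5 in mRNA regulators, and lower calls 5 in IL1 receptor signalling, 7 in the inflammasome list, 2 in gp130 signalling, 3 in the IL20 group, 2 in transcription factors and 5 in mRNA regulators. With an absolute log2 fold change of at least 1, 515 genes were higher and 539 lower, and of the lists 16 and 7, with 0 higher in IL6 receptors, the IL20 group, transcription factors and mRNA regulators, 0 lower in IL1 receptors, IL6 receptors and mRNA regulators, and 1 lower in other cytokines. RLE size factors and DESeq2 each gave 0 lower mRNA regulators, and total count scaling gave 0 higher IL6 receptors and 1 higher transcription factor. Leaving out 1 library gave 1223 to 1378 higher and 1632 to 1761 lower genes, 24 to 26 and 13 to 16 in the lists, 0 to 2 higher and 1 to 2 lower IL6 receptors, 0 to 1 in each direction for gp130 signalling, and 0 to 1 lower mRNA regulators. Deviations from the group mean correlated at 0.372, 0.036 and 0.116 between same-numbered libraries of the groups. Between libraries of different number they correlated at -0.312 to 0.21. The labels do not say that same-numbered libraries belong together, so the main fit did not take the numbers as pairs. With the replicate block 1284 genes were higher and 1699 lower, 25 and 15 in the lists. Counts under 20 reads limit IL33, and low counts limit IL36G. The cause of these shifts was not tested.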

Other observations

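Near members outside the chromosome 2 cluster, called genes went in both directions. Within 250 kb of IL32, 29 genes were tested, 3 called higher and 5 lower, beside 7.89% and 10.5% of all genes tested. MMP25, a membrane-bound matrix metalloproteinase gene 4.6 kb from IL32, rose from 0.551 to 0.976 RPKM (log2 fold change 0.80, SE 0.17, adjusted p = 0.00263), but MMP25-AS1 lies within it on the other strand, and their reads cannot be told apart without strand. KREMEN2, a co-receptor gene of the Wnt inhibitor DKK1, and PKMYT1, which encodes a kinase that restrains CDK1, fell by log2 fold changes of -1.58 and -1.11. Near IL18, the small heat shock protein gene CRYAB rose (0.96), and SDHD, a subunit gene of succinate dehydrogenase, fell from 38.0 to 19.9 RPKM (-0.93). Near IL24, PFKFB2, which encodes a regulator of glycolysis, fell (-0.83), and IL20, 28.2 kb away, was at -1.26 (SE 0.35, adjusted p = 0.0111) but under the level threshold. The part of position in these differences was not tested.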
